A study of Mus musculus with 10 samples.

Results

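Mouse embryonic stem cells lacking both enhancers E1 and E3 (E1&E3-dKO) were set against cells lacking E3 alone (E3-KO), which asks what the loss of E1 adds where E3 is already gone. Both genotypes carry the E3 deletion, so no wild-type library entered the comparison. Each genotype has 2 libraries, so 4 of the 10 libraries of the series were compared, and those of E1-KO and E2-KO (2 each) served only to see whether a feature recurs. Features were called specific to a genotype when both of its libraries held them and neither library of the other genotype did. This rule was met by 44 of 8539 distinct interactions, 1145 of 16704 distinct boundaries and 542 of 10924 distinct TADs (topologically associating domains). Features held by exactly 1 library of each genotype numbered 79, 2415 and 1046. Libraries of different genotype can be paired in 4 ways and those of the same genotype in 2. The counts by themselves are therefore not read as an effect of genotype.

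All libraries are exo-Hi-C of the line ES-E14TG2a, a male line grown without feeder cells in medium with LIF and inhibitors of GSK3 and MEK. Hi-C joins DNA ends that lie close in the nucleus and counts the joined pairs, and the exo variant digests linear DNA after the ligation. Positions of E1, E2 and E3, the exonuclease mix of each library, and whether 2 libraries of a genotype came from separate cultures or clones are not given by the labels. The p-values therefore measure only the spread between these samples, which may be technical, and a difference between genotypes cannot be told apart from a difference between cell clones. With 2 libraries against 2, an exact permutation test cannot give a two-sided p below 0.333.

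Enhancers are stretches of DNA that raise transcription of genes that can lie far away, and they act through contact with promoters. Such contacts form mostly inside TADs, segments whose DNA meets itself more often than its surroundings. The ends of TADs, called boundaries, commonly lie where the protein CTCF halts the loop-extruding cohesin complex. Deletion of an enhancer usually leaves the layout of TADs in place, while loss of a boundary can join neighbouring TADs.

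The interaction lists held 827 and 1467 pairs of 10 kb bins in E3-KO replicates 1 and 2, and 851 and 6014 in E1&E3-dKO replicates 1 and 2. TAD lists held 3300 and 4859 TADs in E3-KO against 3346 and 4871 in E1&E3-dKO. Reads per library are not in the files used here. A relative depth was recovered from the deposited p-values as the contacts expected between 2 average bins 1 Mb apart. It was 0.171 and 0.0721 in E3-KO against 0.110 and 0.0689 in E1&E3-dKO, so replicate 1 was the deeper library of both genotypes. TADs were shorter in the shallower libraries, with median lengths of 230 and 130 kb in E3-KO and of 210 and 120 kb in E1&E3-dKO. The longer TAD list of each genotype was that of its shallower library, and so was the longer interaction list. The part of depth in the counts was not tested beyond leaving out each library and taking lists of equal length.

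No interaction or TAD that all 4 libraries held passed a test of its strength between the genotypes. There were 53 such interactions, 1922 boundaries and 711 TADs. Of the 53 interactions, 33 spanned less than 2 Mb, 18 spanned 2 to 20 Mb and 2 spanned 20 Mb or more. The one with the smallest mean p-value joined the bins centred at 3.035 and 6.025 Mb of chromosome 14, with 28 and 36 reads in E3-KO against 21 and 16 in E1&E3-dKO. Next came 18.325 to 25.095 Mb of chromosome 12, with 15 and 21 reads against 13 and 14. On chromosome 6 the pair at 116.495 and 136.275 Mb had 18 and 11 reads in E3-KO against 23 and 24 in E1&E3-dKO, and the groups did not overlap. The remaining members of the top 5 were 21.555 to 25.185 Mb of chromosome 12, with 16 and 17 reads against 11 and 14, and 39.205 to 46.585 Mb of chromosome 7, with 17 and 30 against 11 and 12. In sum over the 53 pairs the libraries held 801, 810, 554 and 683 reads in the order named above, so raw reads ran lower in E1&E3-dKO for most pairs.

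None of the 53 interactions passed edgeR's quasi-likelihood test at an adjusted p of 0.05 (0%). At an unadjusted p under 0.05 there were 3, and DESeq2 also called 0, with 1 at that level. The largest change upwards was that of the chromosome 6 pair at 116.495 and 136.275 Mb, at 1.11 on the log2 scale (SE 0.42, edgeR adjusted p = 0.464). These ranks hold for TMM scaling. With library size taken from the contacts expected at each pair, which include the bias factors of its bins, the same pair differed by 0.42, and 53.665 to 53.965 Mb of chromosome 14 had the largest upward value, 1.01. Others with high values were 53.665 to 53.965 Mb of chromosome 14 (log2 0.88), 130.535 to 130.745 Mb of chromosome 6 (0.87, or 0.24 with expected contacts), 7.415 to 10.565 Mb of chromosome 7 (0.76) and 20.445 to 21.815 Mb of chromosome 12 (0.72). The lowest values belonged to 42.975 to 117.715 Mb of chromosome 6, with 9 and 11 reads against 4 and 5 (log2 -0.72, or -2.07 with expected contacts), and to 39.205 to 46.585 Mb of chromosome 7 (log2 -0.60). Then came 4.255 to 7.815 Mb of chromosome 14 (-0.57), 93.635 to 94.035 Mb of chromosome 3 (-0.52) and 73.705 to 74.335 Mb of chromosome 8 (-0.49).

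TAD scores, the authors' measure of how strongly a TAD stands out, also gave no call. Of the 711 TADs, 0 passed limma at an adjusted p of 0.05 (0%), and 63 had an unadjusted p under 0.05. By score the first was the TAD at 68.43 to 68.54 Mb of chromosome 13, which had the same length of 110 kb in all 4 libraries, with scores of 3.28 and 7.52 in E3-KO against 3.72 and 5.10 in E1&E3-dKO. The TAD at 21.93 to 22.14 Mb of chromosome 13 scored 4.08 and 3.80 against 3.40 and 4.62. For 21.89 to 22.13 Mb of chromosome 10 the scores were 3.24 and 3.76 against 3.47 and 3.87, and for 66.50 to 66.83 Mb of chromosome 13 they were 3.10 and 3.67 against 3.02 and 4.41. All of these overlapped between genotypes. The other of the 5 with the highest mean scores, at 47.12 to 47.61 Mb of chromosome 6, scored 3.30 and 3.24 in E3-KO against 4.03 and 3.65 in E1&E3-dKO without overlap, a log2 difference of 0.20 (SE 0.092, limma adjusted p = 0.546).

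Among the shared TADs the widest upward difference was at 71.04 to 71.36 Mb of chromosome 17, with scores of 2.13 and 1.80 in E3-KO against 2.57 and 2.96 in E1&E3-dKO (log2 0.47, limma adjusted p = 0.348). It was followed by 38.14 to 38.32 Mb of chromosome 13 (log2 0.44), 109.08 to 109.19 Mb of chromosome 8 (0.40), 65.23 to 65.42 Mb of chromosome 2 (0.38) and 8.77 to 9.21 Mb of chromosome 19 (0.37). In the other direction, 67.08 to 67.43 Mb of chromosome 5 scored 2.25 and 2.36 against 1.87 and 1.85 (log2 -0.34, limma adjusted p = 0.378). The same size was seen at 14.90 to 15.22 Mb of chromosome 5 (-0.34), where the libraries overlapped, then at 100.84 to 100.92 Mb of chromosome 11 (-0.32), 65.44 to 65.66 Mb of chromosome 18 (-0.32) and 10 to 10.4 Mb of chromosome 8 (-0.30). By chromosome, the median log2 difference lay between -0.07 on chromosome 16, where 22 of 29 TADs were lower in E1&E3-dKO, and 0.10 on the X chromosome, with 8 TADs. No value of a chromosome was tested.

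**Figure D1:**
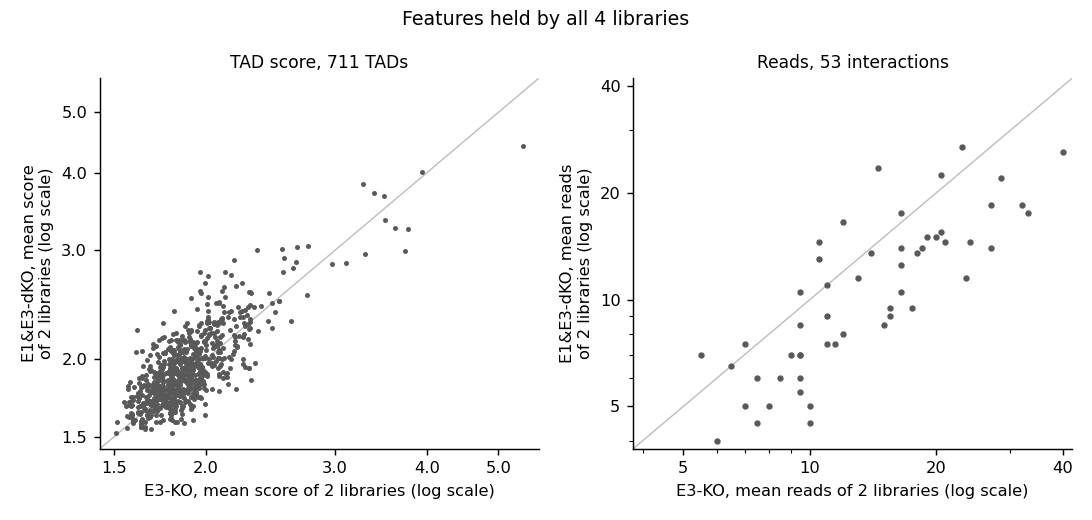
Mean TAD score of the 711 TADs (left) and mean reads of the 53 interactions (right) held by all 4 libraries, E3-KO on the x axis and E1&E3-dKO on the y axis, both on log scales; each point is 1 feature, the mean of 2 libraries, and the grey line marks equal values. TAD scores scatter around the line, and reads lie mostly below it, as the sums of 801 and 810 reads in E3-KO against 554 and 683 in E1&E3-dKO also show.

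Interactions specific to a genotype were few. Only 11 of 8539 distinct interactions were in both E1&E3-dKO libraries and neither of E3-KO (0.129%), and 33 were in both E3-KO libraries and neither of E1&E3-dKO (0.386%). Of the 86 interactions that both E1&E3-dKO libraries held, the 11 made up 12.8%, and of the 117 that both E3-KO libraries held, the 33 made up 28.2%. By distance, those under 2 Mb numbered 5 in E1&E3-dKO and 20 in E3-KO, those of 2 to 20 Mb numbered 3 and 11, and those of 20 Mb or more numbered 3 and 2. These are 0.821% and 3.28% of the 609 distinct interactions under 2 Mb. With adjusted p-values of at most 0.001 the counts were 4 (0.217% of 1842) and 29 (1.57%). With 827 best interactions from each library they were 5 (0.179% of 2789) and 39 (1.4%).

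The E1&E3-dKO interaction with the smallest mean p-value spanned 15 Mb of chromosome 10, from 7.105 to 22.105 Mb. It had 4 and 5 reads, 1588 times the contacts expected, and of the other knockouts only E2-KO replicate 2 listed it. A second on this chromosome, 21.985 to 22.175 Mb, had 12 and 9 reads at 18.99 times the expectation, and both E3-KO libraries listed a pair 60 kb away. Chromosome 14 held 4.355 to 7.805 Mb with 6 and 4 reads, where E3-KO replicate 1 listed a pair 40 kb away, and 9.325 to 65.675 Mb with 3 reads in each library.

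The shortest, 88.085 to 88.115 Mb of chromosome 7, rested on the most reads, 18 and 22, at 9.35 times the expectation, and 18.305 to 72.775 Mb of the same chromosome rested on 3 and 6. Around 0.2 Mb in span were 54.945 to 55.125 Mb of chromosome 15, with 12 and 10 reads, and 125.365 to 125.555 Mb of chromosome 6, with 11 and 10. Both of these recurred in E1-KO replicate 1, with 17 reads each. The remaining pairs named by the rule were 18.235 to 21.605 Mb of chromosome 12, with 4 and 7 reads, and 19.855 to 72.065 Mb of chromosome 8, with 4 and 6. No E1-KO or E2-KO library listed the chromosome 8 pair, but E3-KO replicate 1 listed one 20 kb away, just past the tolerance of 1 bin. An E3-KO pair at 19.805 and 72.095 Mb of chromosome 8, with 4 and 3 reads, counted as specific to E3-KO, and its nearest E1&E3-dKO pairs were 60 and 50 kb away.

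E3-KO interactions that E1&E3-dKO lacked were led by 84.965 to 87.445 Mb of chromosome 1, with 12 reads in each library and 357 times the expected contacts. All 4 of the chromosome 1 pairs in this set lay between 84.965 and 87.535 Mb, and E1&E3-dKO libraries listed other pairs 20 to 150 kb from each of the 4. The next was 53.395 to 54.085 Mb of chromosome 14, with 14 and 16 reads, which all E1-KO and E2-KO libraries listed too. On the X chromosome 3.215 to 4.255 Mb had 14 and 12 reads and no E1&E3-dKO pair within 500 kb. The same held for 7.155 to 8.135 Mb of chromosome 17, with 13 and 8 reads, which both E2-KO libraries listed and neither E1-KO library did. By contrast, 39.325 to 46.445 Mb of chromosome 7, with 7 and 11 reads, lay 20 kb from a pair of each E1&E3-dKO library.

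Shorter E3-KO pairs were 27.705 to 27.835 Mb of chromosome 7 with 18 and 13 reads, 116.735 to 117.025 Mb of chromosome 12 with 14 and 16, and 23.215 to 23.355 Mb of chromosome 5 with 15 and 11. At 24.025 to 24.045 Mb of chromosome 17 there were 17 and 13 reads, and at 105.095 to 105.135 Mb of chromosome 12 there were 14 in each. Chromosome 12 held 7 of the 33, more than any other chromosome, and 1 of the 11. It had 4.37% of all distinct interactions, but also 8 of the 53 that all 4 libraries held, so its count is not particular to the E3-KO set.

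Whether the lists could reach these pairs was put in reads. For each specific interaction the reads expected at the same enrichment in the libraries that lacked it were set against the reads they needed for listing. The enrichment came only from the libraries that held the pair, which were selected for passing the listing limit. It may thus be too high, and the counts that follow may overstate how often the need was met. Of the 11 E1&E3-dKO interactions, 4 had an expectation that met the need in both E3-KO libraries and 7 in only 1 of them. Of the 33 E3-KO interactions, 13 met it in both E1&E3-dKO libraries, 15 in 1 and 5 in neither. The shortfall could be small: 27.705 to 27.835 Mb of chromosome 7 was expected at 7.85 reads in E1&E3-dKO replicate 2, where 8 were needed, and an expectation near the need does not settle whether it would be listed. A pair of the other genotype within 50 kb was listed for 4 of the 11 and for 11 of the 33.

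E3-KO interactions also recurred in the knockouts that the rule did not use. Of the 33, 16 and 23 were listed by E1-KO replicates 1 and 2 and 20 and 30 by E2-KO replicates 1 and 2, and 32 were in at least 1 of these 4 libraries. Of the 11 E1&E3-dKO interactions, 4 and 3 were in the E1-KO libraries and 4 and 4 in the E2-KO libraries, and 9 were in at least 1. Both E1-KO libraries held 12 of the 33 and 1 of the 11. No interaction was in both E1&E3-dKO and both E1-KO libraries while missing from E3-KO and E2-KO. Of the 53 interactions of all 4 libraries, single E1-KO and E2-KO libraries listed 83.0% to 94.3%, and of the 8310 of a single library 0.674% to 1.84%. For the 79 interactions shared by 1 library of each genotype these shares were 41.8% to 70.9%, a range that overlaps that of the E3-KO set, 48.5% to 90.9%. The E1&E3-dKO set, with only 11 members, lay below that range, at 27.3% to 36.4%. The shares of the 79 held by at least 1 of these libraries, or by both E1-KO libraries, were not taken.

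**Figure D2:**
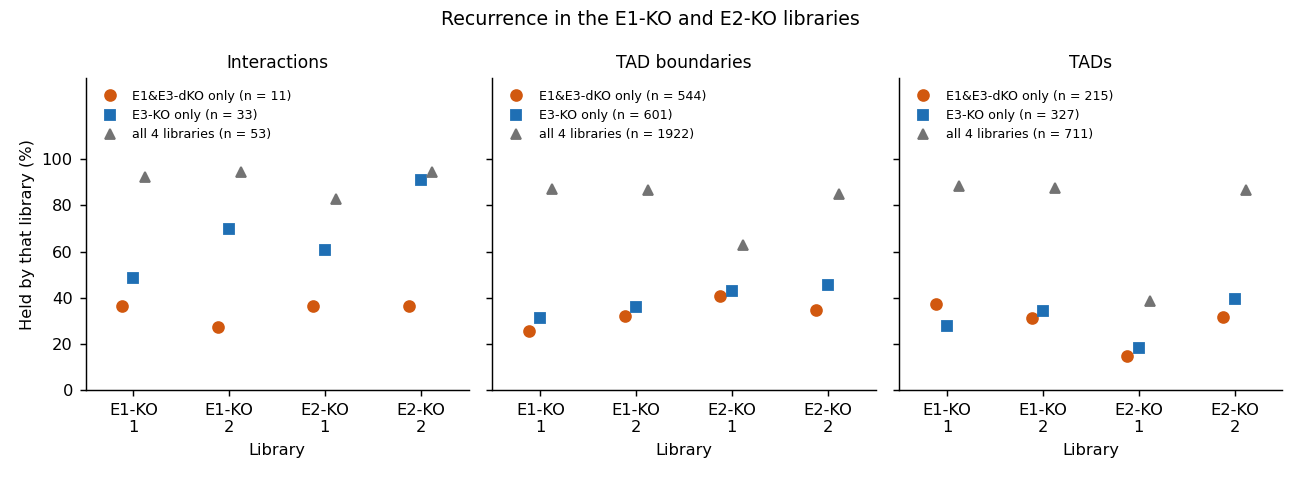
Percentage of interactions (left), boundaries (middle) and TADs (right) held by each E1-KO and E2-KO library on the x axis, for features of both E1&E3-dKO libraries only (orange circles), of both E3-KO libraries only (blue squares) and of all 4 libraries (grey triangles). For interactions the E3-KO set lies between 48.5% and 90.9% and the E1&E3-dKO set between 27.3% and 36.4%, while for boundaries and TADs both sets lie well under the features of all 4 libraries.

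Boundaries specific to a genotype were about as frequent in each direction. There were 544 in both E1&E3-dKO libraries and neither of E3-KO (3.26% of 16704) and 601 in the reverse case (3.6%). They made up 16.1% of the 3380 boundaries of both E1&E3-dKO libraries and 16.3% of the 3685 of both E3-KO libraries. The split depended on the score. Among TADs with a score of at least 2, 143 of 2581 distinct boundaries were specific to E1&E3-dKO (5.54%) and 50 to E3-KO (1.94%). Such TADs numbered 366 and 467 in E3-KO against 420 and 838 in E1&E3-dKO, so E1&E3-dKO replicate 2 had the longest of these lists, and its part in the split was not tested.

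The X chromosome stood out by count. It held 116 of the 544 E1&E3-dKO boundaries (21.3%) and 71 of the 601 E3-KO boundaries (11.8%), with 10.6% of all distinct boundaries. Lists for the X chromosome held 455 and 837 boundaries in E3-KO against 636 and 865 in E1&E3-dKO, so E3-KO replicate 1 had the shortest. With the same number of TADs taken from each library the X counts were 108 and 70. This makes the whole lists equal, not those of the X chromosome. Leaving out E3-KO replicate 1 changes how many libraries a feature needs, so it does not isolate the part of that list. That part was not tested further. With tolerances of 10 and 50 kb, E1&E3-dKO had more X boundaries than E3-KO, at 93 against 68 and 89 against 46. On the autosomes the order was reversed, with 428 in E1&E3-dKO and 530 in E3-KO. By number, the gap between genotypes on an autosome was widest on chromosome 3, with 20 and 40 (1.97% and 3.94% of its distinct boundaries), and then on chromosome 7, with 27 and 45 (2.93% and 4.88%). Chromosomes 1, 13 and 14 went the other way, with 49 and 46, 24 and 19, and 29 and 22, and chromosome 11 had 21 in each.

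A new boundary inside a TAD divides it, whereas one outside TADs extends the listed layout. Of the 544 E1&E3-dKO boundaries, 83 lay inside a TAD of both E3-KO libraries, 318 outside the TADs of both, and 143 inside in 1 only. For the 601 E3-KO boundaries these numbers in E1&E3-dKO were 107, 319 and 175. TADs covered 1146 and 1013 Mb in the E3-KO libraries and 1089 and 1027 Mb in those of E1&E3-dKO. The share inside TADs over all boundaries or positions was not taken, so these counts are not read as particular to the specific boundaries. The nearest boundary of the other genotype was within 50 kb for 228 and 271, and more than 100 kb away for 190 and 205. At least 1 E1-KO or E2-KO library held 74.8% of the E1&E3-dKO boundaries and 78.5% of the E3-KO boundaries. Single E1-KO and E2-KO libraries held 25.7% to 40.8% of the former and 31.4% to 45.6% of the latter. For the 2415 boundaries shared by 1 library of each genotype these shares were 26.3% to 38.3%, a range that overlaps those of both specific sets. Both E1-KO libraries held 79 of the 544, of which 18 were in neither E2-KO library, and 104 of the 601.

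The highest-scoring E1&E3-dKO boundary was at 34.80 Mb of the X chromosome, with scores of 3.19 and 3.49. It lay outside the TADs of both E3-KO libraries, whose nearest boundaries were 170 and 30 kb away, and no E1-KO or E2-KO library held it. At 71.36 Mb of chromosome 17 the scores were 2.57 and 2.96, and all 4 E1-KO and E2-KO libraries held the boundary. It ends the shared TAD with the widest upward difference in score, and E3-KO boundaries lay 30 and 40 kb away, past the tolerance of 20 kb. On chromosome 17 at 35.69 Mb (2.55 and 2.33) and on chromosome 2 at 83.67 Mb (2.06 and 2.69) the boundary was inside a TAD of both E3-KO libraries. Others lay on chromosome 11 at 3.88 Mb (2.59 and 2.50), on chromosome 14 at 27.10 Mb (2.48 and 2.55), on chromosome 13 at 21.24 Mb (2.09 and 2.90) and on chromosome 7 at 38.97 Mb (2.21 and 2.49).

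Among E3-KO boundaries the first was 4.46 Mb of chromosome 9, with scores of 2.59 and 2.67, inside a TAD that ended 30 and 40 kb away in the E1&E3-dKO libraries. At 114.32 Mb of chromosome 4 the scores were 2.49 and 2.59, no other knockout library held the boundary, and the nearest in E1&E3-dKO were 1420 and 360 kb away. The boundary at 114.95 Mb of chromosome 12 (2.32 and 2.12) also lay inside a TAD of both E1&E3-dKO libraries, whose ends were 30 and 40 kb away. The X chromosome held 3 of the 8, at 131.65 Mb (2.16 and 2.33), 150.39 Mb (2.07 and 2.42) and 99.98 Mb (1.53 and 2.90). The others were on chromosome 1 at 85.12 Mb (2.46 and 2.21) and on chromosome 2 at 103.84 Mb (2.13 and 2.39).

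TADs specific to a genotype numbered 215 in E1&E3-dKO (1.97% of 10924) and 327 in E3-KO (2.99%). They were 16.3% of the 1321 TADs of both E1&E3-dKO libraries and 20.7% of the 1577 of both E3-KO libraries. TADs over 90 kb and under 1 Mb made most of the gap, with 163 against 278 (2.52% and 4.3% of 6464 distinct). At 90 kb and shorter there were 42 against 45 (1.01% and 1.08% of 4168). At 1 Mb and longer there were 10 against 4 (3.42% and 1.37% of 292). The longest class thus had the lowest counts but the highest share specific to E1&E3-dKO. On the X chromosome 10 TADs were specific to E1&E3-dKO and 30 to E3-KO, opposite in order to its boundaries. They made up 0.801% and 2.4% of its 1248 distinct TADs, both below the shares over all chromosomes. With scores of at least 2 the order of the whole set turned, to 69 of 1372 distinct TADs in E1&E3-dKO (5.03%) and 27 in E3-KO (1.97%), from the same lists of unequal length.

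By the rule that selected them, these TADs had no close partner in the other genotype. The best reciprocal overlap was under 50% for 124 of the 215 and for 197 of the 327. The same share over all TADs was not taken, so these counts are not read as particular to the specific TADs. Of the 215, 29 lay within a larger TAD of both E3-KO libraries and 51 were divided by a boundary in both. Of the 327, 50 lay within a larger TAD of both E1&E3-dKO libraries and 66 were divided in both. Recurrence stood at 63.3% of the E1&E3-dKO TADs and 62.4% of the E3-KO TADs in at least 1 E1-KO or E2-KO library. Single libraries of these knockouts held 14.9% to 37.2% of the former and 18.3% to 39.4% of the latter. For the 1046 TADs shared by 1 library of each genotype these shares were 16.3% to 36.6%, a range that overlaps those of both specific sets. Both E1-KO libraries held 43 of the 215, of which 14 were in neither E2-KO library, and 57 of the 327.

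A TAD of one genotype took the place of another on chromosome 2. There both E3-KO libraries held a TAD from 83.45 to 83.78 Mb, with scores of 2.18 and 2.24, which both E2-KO libraries also held. In both E1&E3-dKO libraries the TAD ran from 83.46 to 83.67 or 83.69 Mb, with scores of 2.06 and 2.69, and E1-KO replicate 1 held that shorter form. On chromosome 17 the TAD from 35.61 to 35.69 Mb in E1&E3-dKO (2.55 and 2.33) stood within one that ended at 35.72 Mb in both E3-KO libraries (1.86 and 2.25). No E1-KO or E2-KO library held the 80 kb form.

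The E1&E3-dKO TAD with the highest score ran from 32.92 to 34.80 Mb of the X chromosome (3.19 and 3.49), a length of 1880 kb, and no E3-KO TAD overlapped it. Likewise 27.10 to 28.61 Mb of chromosome 14 (2.48 and 2.55) and 38.97 to 39.06 Mb of chromosome 7 (2.21 and 2.49) overlapped none. The TAD from 3.11 to 3.88 Mb of chromosome 11 (2.59 and 2.50) ended at 4.80 and at 3.36 Mb in the E3-KO libraries. The remaining pair were 73.93 to 74.22 Mb of chromosome 1 (2.09 and 2.43) and 40.93 to 41.11 Mb of chromosome 13 (2.06 and 2.41).

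Of the E3-KO TADs the highest score was at 113.97 to 114.32 Mb of chromosome 4 (2.49 and 2.59), where E1&E3-dKO replicate 2 had a TAD from 113.96 to 114.78 Mb and replicate 1 had none. Next were 85.12 to 85.23 Mb of chromosome 1 (2.46 and 2.21) and 103.70 to 103.84 Mb of chromosome 2 (2.13 and 2.39). On the X chromosome these were 131.08 to 131.65 Mb (2.16 and 2.33) and 99.98 to 100.07 Mb (1.53 and 2.90). At 95.89 to 95.98 Mb of chromosome 1 (2.11 and 2.20) no E1&E3-dKO TAD overlapped. The TAD from 29.72 to 30.25 Mb of chromosome 16 (2.21 and 1.96) was also in all 4 E1-KO and E2-KO libraries. In E1&E3-dKO it was 29.59 to 30.54 and 29.58 to 30.25 Mb, so its best overlap of 79.1% fell just under the limit of 80%.

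**Figure D3:**
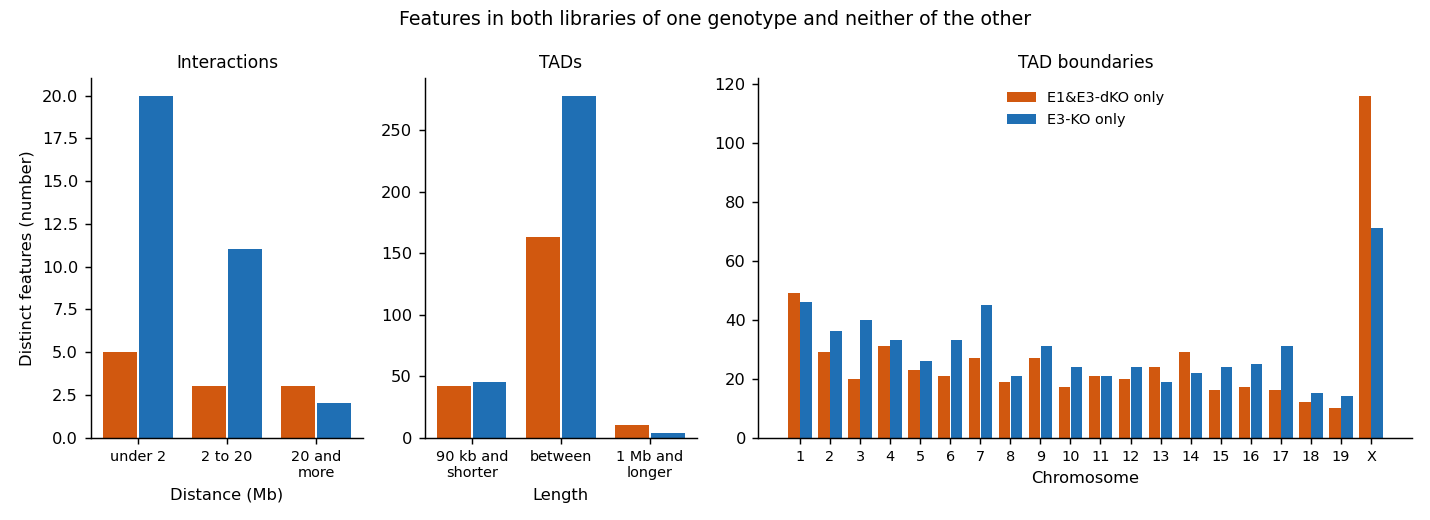
Number of distinct interactions by distance class (left), TADs by length class (middle) and boundaries by chromosome (right) in both libraries of E1&E3-dKO and neither of E3-KO (orange) or the reverse (blue). E3-KO exceeds E1&E3-dKO for interactions under 2 Mb (20 against 5) and TADs of middle length (278 against 163), and E1&E3-dKO exceeds E3-KO for boundaries of the X chromosome (116 against 71).

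The share of interactions that are short was lower in both E1&E3-dKO libraries than in both E3-KO libraries. Interactions under 2 Mb were 27.6% and 19.6% of the lists in E3-KO against 12.7% and 5.69% in E1&E3-dKO, so the genotypes did not overlap. The means were 23.6% ± 5.66 and 9.19% ± 4.95, a difference of -14.4 percentage points (SD, n = 2 each, exact permutation p = 0.333, two-sided, the smallest possible). With 827 best interactions from each library the difference was -15.2 points, also without overlap. Numbers of interactions under 2 Mb did overlap, at 228 and 287 against 108 and 342. At 20 Mb and more they were 417 and 883 against 603 and 3713, and the median distance was 20.99 and 27.89 Mb against 48.05 and 26.5 Mb. Pairs with 3 reads, the fewest that any list holds, made up 40.3% and 64.2% in E3-KO against 62.0% and 83.8% in E1&E3-dKO. Interactions under 2 Mb made up 73.83% and 39.96% in the E1-KO libraries and 26.85% and 50.19% in the E2-KO libraries. All of these shares lay above both E1&E3-dKO libraries. Libraries of the same genotype differed there by more than E1&E3-dKO and E3-KO did, so the lower share is not read as a trait of the genotype.

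Contacts expected at long range were higher in E1&E3-dKO relative to those at 1 Mb. This expectation, against which the authors' list scores a pair, was read back from the deposited p-values. At 80 Mb it was 0.0115 and 0.0123 of the level at 1 Mb in E3-KO against 0.0166 and 0.0213 in E1&E3-dKO. At 40 Mb it was 0.0305 and 0.0327 against 0.0365 and 0.0411. In neither case did the genotypes overlap (exact permutation p = 0.333, two-sided, n = 2 each). At 0.1 Mb the order was the reverse, with 9.22 and 8.87 times the level at 1 Mb against 8.74 and 8.02. From 2 to 20 Mb the libraries of both genotypes overlapped. The E1-KO libraries had 0.0132 and 0.0110 at 80 Mb and the E2-KO libraries 0.00919 and 0.00826, all below both E1&E3-dKO libraries. E1&E3-dKO replicate 2, with the highest value at 80 Mb, also had the longest list and the lowest depth of the 4 libraries as read at 1 Mb. At 80 Mb its expected contacts were 0.00146, above the 0.000889 of E3-KO replicate 2, so its rank in depth changes with the distance used. The part of depth was not tested.

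**Figure D4:**
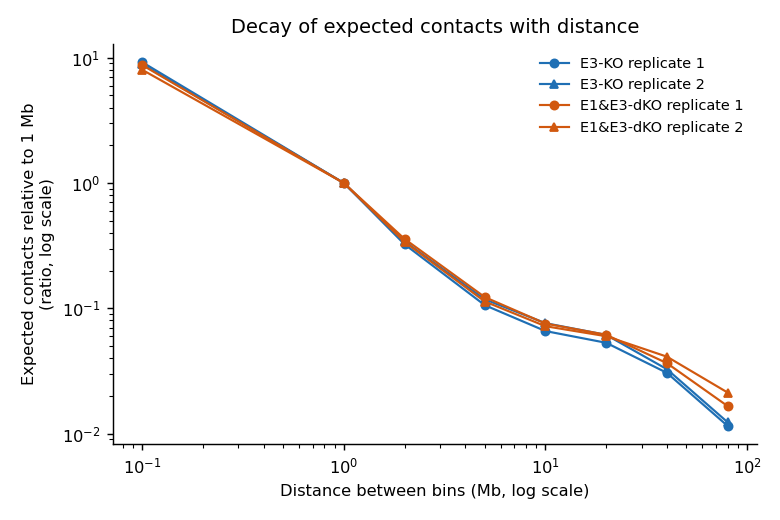
Expected contacts between average bins as a ratio to those at 1 Mb (y axis, log scale) against distance in Mb (x axis, log scale), one line per library, E3-KO in blue and E1&E3-dKO in orange. The genotypes overlap from 2 to 20 Mb and part at 40 and 80 Mb, with 0.0166 and 0.0213 in E1&E3-dKO over 0.0115 and 0.0123 in E3-KO at 80 Mb. At 0.1 Mb E3-KO lies higher, with 9.22 and 8.87 against 8.74 and 8.02.

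Chromosome 6 differed between the genotypes in the deposited bias factor. This factor is a ratio to an average bin, by which the authors' expectation for a pair is multiplied, and a factor of this kind is larger for bins that take part in more contacts. The comparison was added after the data were seen. Median bias factors of listed bins on chromosome 6 were 1.04 and 1.07 in E3-KO, from 94 and 181 bins, and 1.25 and 1.28 in E1&E3-dKO, from 87 and 808 bins. Of 20 chromosomes it was the only one called (5%), with a log2 difference of 0.27 (SE 0.024, limma adjusted p = 0.0121). The call was lost without E3-KO replicate 1 (adjusted p = 0.288), without E3-KO replicate 2 (0.203), without E1&E3-dKO replicate 2 (0.0550) and with the replicate number as a block (0.0510), and kept without E1&E3-dKO replicate 1 (0.0340). Its size stayed at 0.25 to 0.28 when any library was left out.

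The difference ran along the chromosome. Over 3 equal stretches of it, in order of position, the median was 1.02, 1.09 and 1.06 in E3-KO replicate 1 and 1.07, 1.08 and 1.02 in replicate 2. In E1&E3-dKO it was 1.42, 1.24 and 1.17 in replicate 1 and 1.30, 1.28 and 1.28 in replicate 2. Bins listed in all 4 libraries were also compared. Of these 121 bins, 16 lay on chromosome 6, and each of the 16 was higher in E1&E3-dKO, by log2 values of 0.18 to 0.53 with a median of 0.33. In limma 8 of the 121 bins were called (6.61%), 7 higher, all of them on chromosome 6, and 1 lower, at 24.445 Mb of chromosome 12. The fit gave every bin the same SE of 0.114, so its p-values rest on a spread pooled over bins. They do not rest on the spread between the libraries at each bin alone. At the called bin at 130.675 Mb the genotypes overlapped, with 1.21 in E3-KO replicate 2 against 1.13 in E1&E3-dKO replicate 1. The other called bins did not overlap. Of the 16 bins on chromosome 6, 11 lay in a single stretch from 130.525 to 130.945 Mb, as did 5 of the 7 called there. These bins therefore cover little of the chromosome. The count of called bins was 0 without E3-KO replicate 1, E3-KO replicate 2 or E1&E3-dKO replicate 2, 2 without E1&E3-dKO replicate 1, and 20 with the replicate block.

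E3-KO had the lowest medians of the knockouts on chromosome 6. Medians of the single knockouts beside it were 1.43 and 1.24 in E1-KO and 1.22 and 1.19 in E2-KO. Chromosome 8 had a high factor in both genotypes, with 1.23 and 1.23 in E3-KO against 1.21 and 1.22 in E1&E3-dKO. The X chromosome, present once in this male line, had the lowest medians, 0.657 and 0.661 against 0.656 and 0.660. Chromosome 19 was lower in E1&E3-dKO, at 1.06 and 1.07 against 0.935 and 0.838 (log2 -0.27, limma adjusted p = 0.136), where E1&E3-dKO replicate 1 listed only 4 bins. Without that library chromosome 19 was called too, at log2 -0.35 (limma adjusted p = 0.0235). Whether copies of chromosome 6 differed between the cells was not tested.

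Under TMM scaling, reads of most shared interactions on chromosome 6 were higher in E1&E3-dKO, though none was called. Of its 6 pairs, 5 were higher, with a median log2 difference of 0.59, against 21 of 47 on the other chromosomes, with a median of -0.06. All the higher pairs but 116.495 to 136.275 Mb lay between 130.515 and 130.945 Mb. For those starting at 130.665, 130.685 and 130.535 Mb, E1&E3-dKO replicate 1 had 16, 12 and 10 raw reads, below both E3-KO libraries. Replicate 2 had 38, 33 and 23, above both. The pair starting at 130.515 Mb had 15 and 18 raw reads in E3-KO against 20 and 15 in E1&E3-dKO. With library size taken from the expected contacts, which include the bias factors, 3 of the 6 were higher, with a median of 0.04. Among features specific to a genotype, chromosome 6 held 1 interaction specific to each genotype (0.179% of its distinct interactions, against 0.129% and 0.386% over all chromosomes). It held 21 boundaries of E1&E3-dKO against 33 of E3-KO (2.48% and 3.89%, with 3.26% and 3.6% over all). Its specific TADs were 13 against 23 (2.38% and 4.21%, with 1.97% and 2.99% over all). The median log2 difference in score of its 48 shared TADs was -0.01, with 23 higher and 25 lower in E1&E3-dKO.

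**Figure D5:**
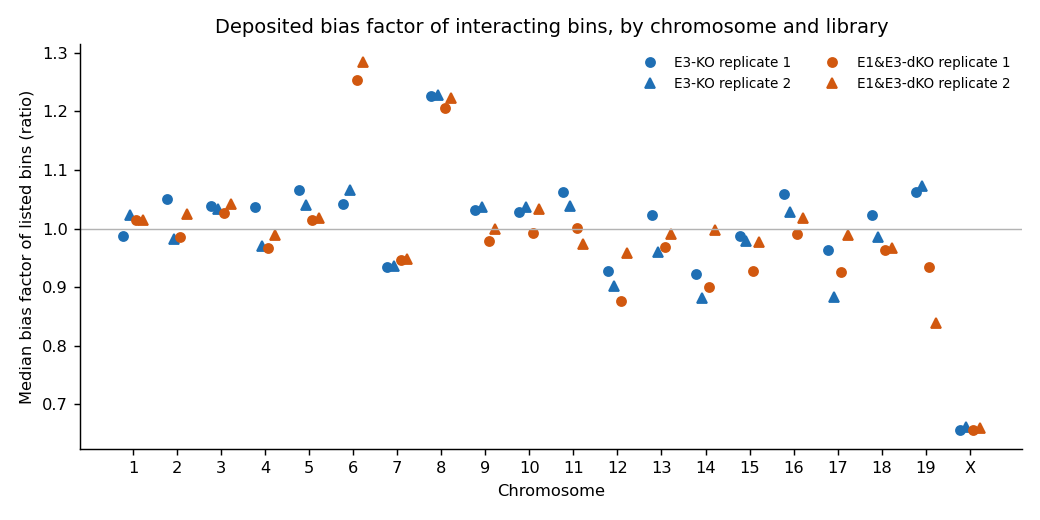
Median deposited bias factor of the bins in the interaction lists (y axis, ratio to an average bin) for each chromosome (x axis), 1 point per library, E3-KO in blue and E1&E3-dKO in orange, circles for replicate 1 and triangles for replicate 2. On chromosome 6 the E1&E3-dKO points at 1.25 and 1.28 lie above the E3-KO points at 1.04 and 1.07, and on the X chromosome all 4 lie together near 0.66.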

How the data were processed

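Exo-Hi-C was compared between 2 E1&E3-dKO and 2 E3-KO libraries of mouse ES-E14TG2a cells. The submitters' processing notes name the build mm9 and the tools HiC-Pro (2.10.0) and HOMER, with the version of HOMER and the tool behind the interaction lists not given in the sources used here. The deposited interaction lists give, per pair of 10 kb bins, an unscaled count of reads, a p-value, an adjusted p-value that never exceeds 0.01, and a bias factor per bin, which is a ratio. The deposited TAD lists give a score per TAD, never below 1.5. Replicates were not pooled by the authors. Total depth is unknown.

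Interactions were matched within 1 bin, boundaries within 20 kb and TADs at a reciprocal overlap of 80%. Of matching features the one with the smallest p-value or highest score was kept. The Poisson mean that returns each deposited p-value gave the expected contacts. After division by both bias factors, pairs at the same distance agreed to a relative gap of at most 1.62e-06 in these libraries. Shared TADs were tested with limma 3.58.1 on log2 scores centred per library, and shared interactions with edgeR 4.0.16 (TMM) and DESeq2 1.42.0, in R 4.3.3 with Benjamini-Hochberg adjustment. Bias factors were tested with limma on log2 medians per chromosome and on log2 values per bin, centred per library. Matching, recovery and fits were tested on simulated data. Single values per library used exact permutation in scipy.

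Regions were named by rule: the 10 specific interactions with the smallest mean p-value, 8 boundaries and 8 TADs with the highest mean score per direction, the top 5 shared features, and the 5 largest changes each way. Members, lists and rules were chosen with earlier results of these data known. Genes and sequences at the named positions, which need mm9, were not analysed here.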

Additional observations from a re-analysis of the deposited data

How the results depend on the processing

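The samples share replicate numbers but no stated origin, and same-numbered TAD scores deviated together only weakly (correlation 0.13; -0.01 for reads). With the replicate block, 0 of 711 TADs and 0 of 53 interactions were called, and on bias factors 0 chromosomes and 20 of 121 bins, with the log2 value of chromosome 6 still 0.27. Both tests of shared features stayed at 0 calls under every scaling, tool, filter and left-out library tried. Uncentred bias factors gave 3 bins.

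Stricter lists changed the counts of specific features. With an adjusted p of at most 0.001 there were 4 E1&E3-dKO interactions, and with the same number from each library 5. A score of at least 2 left 143 and 50 boundaries and 69 and 27 TADs in E1&E3-dKO and E3-KO. On the autosomes the mean number of TADs was lower in E1&E3-dKO by 18 (-18) and not higher by 29.

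Leaving out 1 library, with a lone library assumed to vary like the others, gave these ranges, where a feature then needs fewer libraries to count. Specific interactions ranged from 12 to 5805 in E1&E3-dKO and from 41 to 1219 in E3-KO, boundaries from 927 to 4333 and from 1086 to 3923, and TADs from 333 to 3106 and from 497 to 3029. The difference in number of interactions ranged from -296 to 4867, in number of TADs from -750.5 to 808.5 and in median TAD length from -65 to 35 kb. Calls on bias factors ranged from 0 to 2 chromosomes and from 0 to 2 bins, and the log2 value of chromosome 6 from 0.25 to 0.28. The cause of these changes was not tested. Without E3-KO replicate 2, the only library here whose title begins with w326, 31 interactions were specific to E1&E3-dKO.

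Counts rest on lists with 3 reads for many pairs and on 2 libraries per genotype. A feature missing from a list was not listed there, which is not the same as absent, and the part of depth was not tested for single features.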
